A study of Mus musculus with 9 samples.

Results

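Glycolysis turns glucose into lactate and the response to low oxygen raises it, and 36 mouse genes of these linked programmes were examined in NIH 3T3 cells, an immortal mouse embryo fibroblast line. The genes comprise 15 glycolytic enzymes, 6 genes of glucose or lactate transport and of the regulation of glycolytic flux, and 15 other genes of the hypoxia-inducible factor (HIF) pathway. A gene was measured where the array had a probe set annotated to it alone, and of several such probe sets the one with the highest mean was used. By this rule 33 of the 36 genes were measured, among 19935 genes in all. Gpi1, Gapdh and Eno1 had no probe set of their own by this rule and were not analysed here. Pkm2 and Ero1l are named Pkm and Ero1a below.

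Total RNA was hybridised to 9 Affymetrix arrays, 3 per group and 1 per biological replicate. The cells stably carried an shRNA against Sap-1 (Sap-1 shRNA), an shRNA against Net (Net shRNA) or the pLKO.1 control vector (control). Sap-1 (gene Elk4) and Net (gene Elk3) are transcription factors of the ETS family and partners of serum response factor. Cells of all 3 groups were plated on fibronectin for 2 hours, starved of serum overnight and given bovine serum for 1 hour, at 10% in the sample protocols and 20% in the series description. The labels give no low-oxygen treatment, and they do not say how many transduced lines or shRNA sequences each group holds, so p-values measure the spread between replicates of a group and may not cover differences between independently made lines.

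In glycolysis, hexokinases trap glucose in the cell, phosphofructokinases commit it to breakdown, and the later enzymes yield ATP, pyruvate and lactate. HIF is a dimer of an oxygen-regulated alpha subunit, such as the product of Hif1a, and the constant subunit made from Arnt. Prolyl hydroxylases of the EGLN family mark the alpha subunit for destruction when oxygen is present, so much of its control lies at the level of protein, which arrays do not measure. HIF binds a short core, ACGTG or GCGTG, near genes of glucose uptake, glycolysis, mitophagy, collagen maturation and vessel growth, and several members are also targets of other factors such as MYC.

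The 250 bases upstream of 6 members that differed between the groups are printed here because they show how the HIF core is spread over their promoters. They are the RefSeq sequences of mouse build GRCm38.p6, from the first listed gene start, 5′ to 3′ on the strand of the gene, with every ACGTG or GCGTG on either strand in capitals (CACGT and CACGC on the printed strand are such cores on the other strand).
Bnip3, chr7:138909507-138909756, minus strand: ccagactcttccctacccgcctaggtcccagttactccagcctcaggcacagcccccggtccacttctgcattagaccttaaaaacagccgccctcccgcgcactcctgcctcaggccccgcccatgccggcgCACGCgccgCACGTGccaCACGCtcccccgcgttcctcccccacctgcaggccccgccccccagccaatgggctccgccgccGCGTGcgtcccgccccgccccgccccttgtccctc
Ldha, chr7:46845554-46845803, plus strand: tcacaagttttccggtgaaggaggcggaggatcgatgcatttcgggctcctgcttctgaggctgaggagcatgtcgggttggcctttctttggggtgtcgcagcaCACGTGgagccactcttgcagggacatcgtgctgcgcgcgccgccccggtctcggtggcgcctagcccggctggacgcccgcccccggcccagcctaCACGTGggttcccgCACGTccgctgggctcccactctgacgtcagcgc
Ero1a, chr14:45318573-45318822, minus strand: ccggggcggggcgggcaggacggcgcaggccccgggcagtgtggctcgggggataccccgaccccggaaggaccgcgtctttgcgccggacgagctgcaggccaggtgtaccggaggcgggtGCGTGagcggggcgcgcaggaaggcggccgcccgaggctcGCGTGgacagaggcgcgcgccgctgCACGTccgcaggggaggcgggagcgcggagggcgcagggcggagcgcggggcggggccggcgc
Pfkp, chr13:6648772-6649021, minus strand: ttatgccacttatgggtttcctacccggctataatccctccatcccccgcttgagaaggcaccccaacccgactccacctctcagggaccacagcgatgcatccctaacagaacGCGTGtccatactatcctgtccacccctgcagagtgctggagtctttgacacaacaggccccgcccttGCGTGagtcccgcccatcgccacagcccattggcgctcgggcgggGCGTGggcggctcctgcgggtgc
Pgk1, chrX:106186850-106187099, plus strand: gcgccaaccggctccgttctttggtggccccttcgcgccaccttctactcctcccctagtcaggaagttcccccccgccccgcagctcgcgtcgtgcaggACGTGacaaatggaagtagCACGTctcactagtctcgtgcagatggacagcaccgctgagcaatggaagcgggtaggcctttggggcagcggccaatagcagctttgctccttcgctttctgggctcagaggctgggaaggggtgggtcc
Adm, chr7:110627407-110627656, plus strand: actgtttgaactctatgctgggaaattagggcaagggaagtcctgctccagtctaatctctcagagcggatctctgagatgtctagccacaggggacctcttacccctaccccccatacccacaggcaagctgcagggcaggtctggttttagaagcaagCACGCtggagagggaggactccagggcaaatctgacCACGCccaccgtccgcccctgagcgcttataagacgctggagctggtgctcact

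The Bnip3 and Ldha stretches each held 5 cores, those of Ero1a and Pfkp 3 each, and those of Pgk1 and Adm 2 each. The E box CACGTG, which MYC and related factors bind, overlaps ACGTG and counts as 2 cores because it holds 1 on each strand. It occurred 2 times upstream of Ldha and 1 time upstream of Bnip3. Of the 33 measured members 30 had a promoter window, and 25 of them (83.3%) held at least 1 core, against 46.3% of the 15612 tested genes with a window. ACGTG was present in 60% of members and 18.5% of genes, GCGTG in 53.3% and 36%, and CACGTG in 13.3% and 7.03%. The members' windows were also richer in CG, which every core contains, with a median of 18 CG pairs against 11. The list was drawn up partly from known HIF targets, so an excess of cores may come from its choice. It is no support for the expression changes below. By class the core was found in 8 of 12 glycolytic enzyme windows, 5 of 5 of transport and regulation and 12 of 13 of the other HIF pathway. Hk1, Aldoa, Tpi1, Pkm and Mxi1 had none in this window, and these matches are descriptions, not binding sites. Only the first listed start of each gene was searched, and which start these cells use was not tested. The windows of Hk1 and Aldoa held 1 and 0 CG pairs, so a missing core there does not speak for other starts of the gene. That of Pfkm held 2 CG pairs and 2 cores, which overlap in 1 E box.

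Levels are on the log2 scale of RMA, the method that corrects background, scales the arrays to each other and summarises each probe set, so a difference of 1 is a doubling as the array reports it. Array medians lay between 7.47 and 7.54, correlations within groups between 0.9982 and 0.9992 across probe sets. Precision is set by the 3 arrays in each group. Elk4 stood at 9.5, 9.54 and 9.55 in Sap-1 shRNA cells, 10.58, 10.66 and 10.64 in Net shRNA cells and 11.03, 11.05 and 11.13 in control. Elk3 stood at 11.37, 11.4 and 11.38 in Sap-1 shRNA cells, 11.06, 11.08 and 11.1 in Net shRNA cells and 11.48, 11.52 and 11.52 in control. Each targeted gene was lowest in its own knockdown, at -1.54 for Elk4 with Sap-1 shRNA (adjusted p = 9.2e-10) and -0.42 for Elk3 with Net shRNA (adjusted p = 1.1e-05). Elk4 was also lower with Net shRNA, at -0.44 (adjusted p = 2.3e-05), and Elk3 with Sap-1 shRNA, at -0.12 (adjusted p = 0.023). Of 12 fibroblast markers, 6 were lower and none higher in Sap-1 shRNA cells (4 lower and none higher in Net shRNA cells), with a mean list level of 11.31 to 11.39 over the Sap-1 shRNA arrays, 11.91 to 11.98 over Net shRNA and 12.02 to 12.07 over control. Of genes at or above the median level, as 11 of these 12 markers are, 24.7% were lower with Sap-1 and 20.9% with Net shRNA. Lum, a collagen-binding proteoglycan gene, changed by -4.82 and Pdgfra, a growth factor receptor gene, by -1.74 in Sap-1 shRNA cells. Of 8 macrophage markers 2 were higher and 1 lower with Sap-1 shRNA and 3 higher with Net shRNA, with mean list levels of 6.75 to 6.79 in Sap-1 shRNA, 6.72 to 6.78 in Net shRNA and 6.55 to 6.57 in control arrays. Among them Lyz2, a lysozyme gene, changed by 1.81 with Sap-1 shRNA and 0.81 with Net shRNA, while the list's median change was -0.01 with Sap-1 shRNA and 0.03 with Net shRNA. Of 8 endothelial markers 2 were higher and 1 lower with Sap-1 shRNA and 2 higher with Net shRNA, with mean levels of 6.92 to 6.97 in Sap-1 shRNA, 7.03 to 7.1 in Net shRNA and 6.73 to 6.78 in control arrays. Of 8 epithelial markers 1 was higher with Sap-1 shRNA and 2 with Net shRNA, with mean levels of 7 to 7.06 in Sap-1 shRNA, 7.09 to 7.26 in Net shRNA and 7 to 7.12 in control arrays. Over all genes tested, 15.8% were higher and 13.9% lower with Sap-1 shRNA, and 13.4% and 10.2% with Net shRNA. Array levels have no 0, so absence of a marker cannot be read from them. The part of these marker changes in the results that follow was not tested, and in bulk RNA fewer cells of a type and less RNA per cell cannot be told apart.

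Sap-1 shRNA cells were first set against control. Most of the measured members were higher. Of 33 members 26 were higher, none was lower and 7 did not pass (limma, Benjamini-Hochberg adjusted p under 0.05 over all genes), where 29.7% of all genes tested were called, 15.8% higher and 13.9% lower. Among genes at or above the median level, where 26 of the 33 members lie, 29.8% were higher and 24.7% lower. The median change over the members was 0.42 on the log2 scale, beside -0.02 over all genes tested. The largest changes were those of Ero1a, Egln3, Bnip3, Pfkp and Pfkl, at 1.15 to 1.64, which are folds of 2.22 to 3.11. A fold of at least 1.5 was reached by 12 members, against 2.32% of all genes upward and 2.15% downward. Arrays of Sap-1 shRNA did not overlap those of control for 27 members, all upward, where 20.8% of all genes were separated in that direction and 20.2% in the other.

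The same comparison for the Net shRNA gave smaller differences. Of 33 members 14 were higher and none lower in Net shRNA than in control cells, where 23.6% of all genes were called, 13.4% higher and 10.2% lower. Among genes at or above the median level 26.5% were higher and 20.9% lower. With each array centred on its median 9 members were higher and 1, Mxi1, lower. Arrays did not overlap control for 18 members upward and 1 downward, against 18.5% and 15.8% of all genes. The median over the members was 0.12, beside 0 over all genes. A fold of at least 1.5 was reached by Adm alone, which encodes the vessel-dilating peptide adrenomedullin, whereas 1.59% of all genes reached it upward and 0.968% downward. The other 13 changes lay between 0.12 and 0.47.

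The knockdowns were also set against each other directly. Of 33 members 22 were higher and 2, Adm and Hif1a, were lower in Sap-1 shRNA than in Net shRNA cells, where 27.5% of all genes were called, 13.3% higher and 14.2% lower. Among genes at or above the median level 25.8% were higher and 26.2% lower. A fold of at least 1.5 was reached by 8 members upward and 1 downward, against 2.16% and 2.47% of all genes. Arrays did not overlap for 24 members upward and 3 downward, against 17.8% and 19.6% of all genes. The median was 0.33, beside -0.02 over all genes. Against control, 12 members passed upward with both shRNAs, 14 with Sap-1 shRNA only and 2 (Pfkm and Hif1a) with Net shRNA only. Another 5 passed with neither, namely Slc2a3, Slc16a3, Aldoc, Car9 and, on the probe set used, Hk1. Of the 14 that passed with Sap-1 shRNA only, 11 were also higher in the direct comparison. Slc2a1, Pfkfb3 and Ankrd37 were not, so a difference between the knockdowns was not shown for these 3. Both comparisons with control use the same 3 control arrays.

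**Figure D1:**
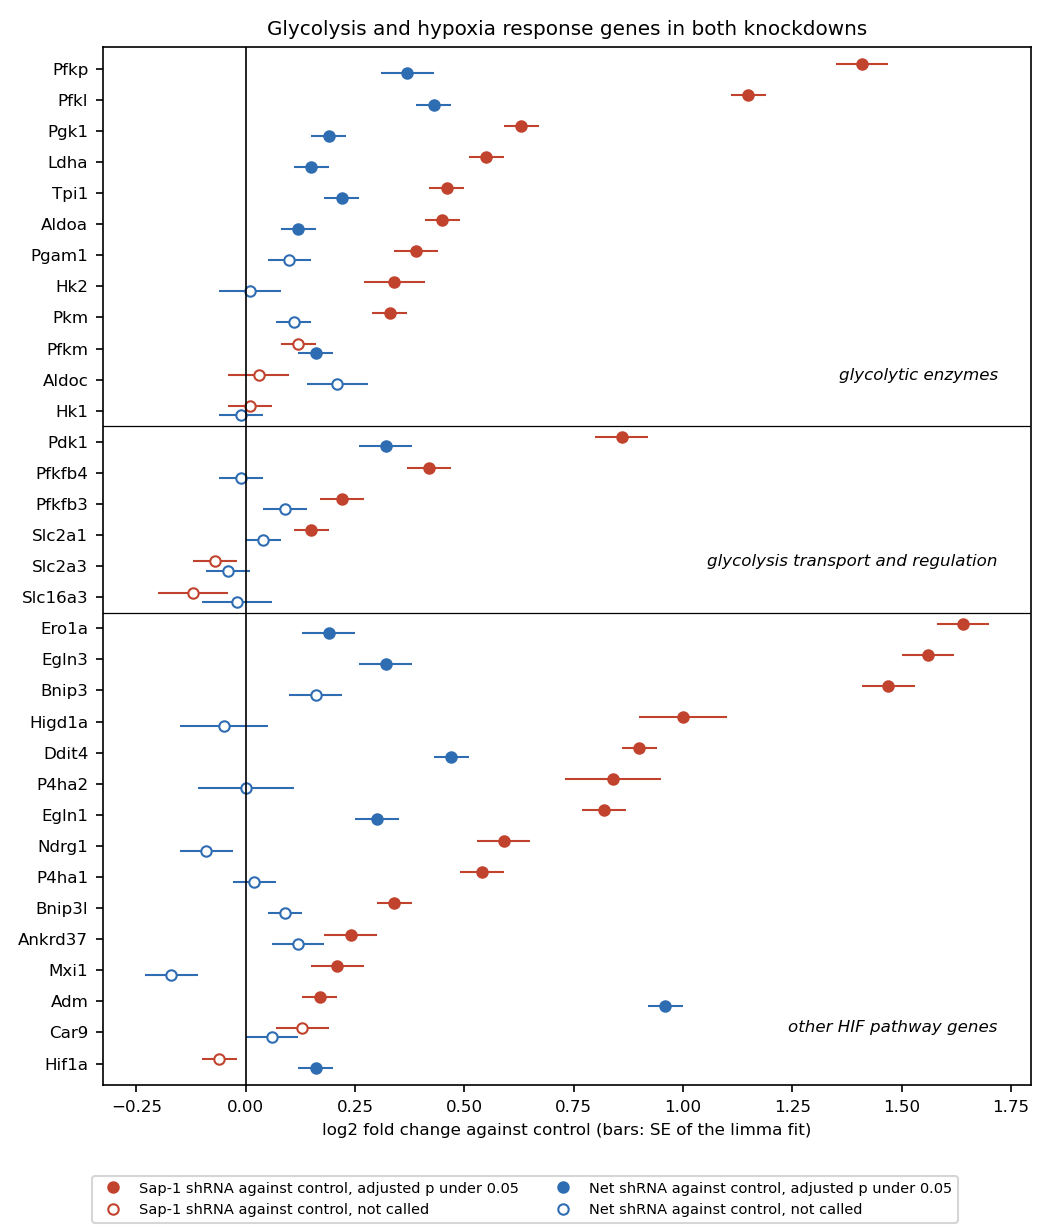
Log2 fold change against control of the 33 measured members with Sap-1 shRNA (red) and Net shRNA (blue), ordered within 3 classes by the Sap-1 shRNA value; bars are the standard error of the limma fit and filled points passed at an adjusted p under 0.05. With Sap-1 shRNA 26 points are filled, up to 1.64 for Ero1a, and with Net shRNA 14, where Adm at 0.96 stands apart.

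Among glycolytic enzymes the 12 measured genes gave 9 higher and 3 not called with Sap-1 shRNA (median 0.42, range 0.01 to 1.41), and 7 higher and 5 not called with Net shRNA (median 0.15, range -0.01 to 0.43). The 7 became 4 without Net shRNA replicate 2, control replicate 1 or control replicate 2. The other 15 HIF pathway genes gave 13 higher and 2 not called with Sap-1 shRNA (median 0.59, range -0.06 to 1.64), and 6 higher and 9 not called with Net shRNA (median 0.12, range -0.17 to 0.96). Transport and regulation gave 4 of 6 higher with Sap-1 shRNA (median 0.19) and 1 of 6 with Net shRNA (median 0.02). Over all genes tested 15.8% were higher with Sap-1 shRNA and 13.4% with Net shRNA, and 29.8% and 26.5% of genes at or above the median level. At or above it lay 11 of the 12 enzymes, 12 of the 15 other HIF pathway genes and 3 of the 6 of transport and regulation. The share of 16.7% for transport and regulation with Net shRNA lay near that of all genes. At least 1.5-fold was reached with Sap-1 shRNA by 3 of 12 glycolytic enzymes, 1 of 6 genes of transport and regulation and 8 of 15 other HIF pathway genes. Upward, 2.32% of all genes tested reached it. The shares called with Sap-1 shRNA were 75% and 86.7% for the enzymes and the other HIF pathway genes. The difference between the classes was not tested. Median control levels were 12.62 for the enzymes, 10.56 for the other HIF pathway genes and 7.79 for transport and regulation. The classes thus also differed in level, and its part in these contrasts was not tested. In Sap-1 over Net shRNA cells the medians were 0.31 for the enzymes, 0.12 for transport and regulation and 0.52 for the other HIF pathway genes.

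Among the 12 measured member enzymes, the largest changes in each comparison with control were those of 2 phosphofructokinases. Pfkp, the platelet-type phosphofructokinase, had levels of 9.78, 9.78 and 9.81 in Sap-1 shRNA cells, 8.67, 8.78 and 8.78 in Net shRNA cells and 8.28, 8.34 and 8.5 in control. The 3 groups did not overlap and stood in the order Sap-1, Net, control. Pfkp rose by 1.41 with Sap-1 shRNA (SE 0.06, adjusted p = 1.5e-08) and by 0.37 with Net shRNA (SE 0.06, adjusted p = 6.7e-04), and the knockdowns differed by 1.04 (SE 0.06, adjusted p = 1.4e-07).

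Pfkl, the liver-type phosphofructokinase, had levels of 11.58, 11.53 and 11.56 in Sap-1 shRNA cells, 10.86, 10.84 and 10.8 in Net shRNA cells and 10.35, 10.42 and 10.45 in control, again with no overlap. It rose by 1.15 with Sap-1 shRNA (SE 0.04, adjusted p = 6.3e-09) and by 0.43 with Net shRNA (SE 0.04, adjusted p = 2.7e-05). Pfkm, the muscle-type enzyme, had the weakest change of this family. Its levels were 10.41, 10.39 and 10.43 in Sap-1 shRNA cells, 10.47, 10.47 and 10.38 in Net shRNA cells and 10.23, 10.27 and 10.35 in control, with a change of 0.12 that did not pass with Sap-1 shRNA (SE 0.04, adjusted p = 0.058). With Net shRNA Pfkm rose by 0.16 (adjusted p = 0.026), and the knockdowns overlapped. Pfkm lost its Net call without Net shRNA replicate 1 or 2, or without control replicate 1 or 2, with an adjusted p of at most 0.096.

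Hexokinase 2 (Hk2), an inducible isozyme, rose by 0.34 with Sap-1 shRNA (SE 0.07, adjusted p = 3.9e-03), with levels of 10.38 to 10.48 against 9.9 to 10.22 in control. With Net shRNA it lay at 0.01 (adjusted p = 0.94). Aldoa, the main muscle and fibroblast aldolase, rose by 0.45 (SE 0.04, adjusted p = 5.3e-06) and Tpi1, triose phosphate isomerase, by 0.46 (SE 0.04, adjusted p = 3.3e-06) with Sap-1 shRNA. With Net shRNA they rose by 0.12 (adjusted p = 0.038) and 0.22 (adjusted p = 1.3e-03). Tpi1 stood at 12.75 on every Net shRNA array (SD 0), which gives no measure of spread and lowers the pooled variance. The Aldoa call with Net shRNA was lost in all but 1 of the fits that left out an array, and with an adjusted p of at most 0.12 over all settings. Aldoc, a second aldolase, lay at 0.03 with Sap-1 shRNA and 0.21 with Net shRNA and passed in neither (adjusted p = 0.8 and 0.052). Its levels over all arrays were 6.8 to 7.26, below the median gene level of 7.81.

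All 4 measured enzymes from triose phosphate to lactate rose with Sap-1 shRNA, by 0.33 to 0.63. Pgk1, phosphoglycerate kinase, which makes the first ATP of the pathway, had levels of 13.44, 13.37 and 13.45 in Sap-1 shRNA cells, 12.94, 12.99 and 13 in Net shRNA cells and 12.78, 12.82 and 12.77 in control. It rose by 0.63 (SE 0.04, adjusted p = 5.2e-07) with Sap-1 and 0.19 (SE 0.04, adjusted p = 5.0e-03) with Net shRNA, and the groups did not overlap. Ldha, the lactate dehydrogenase subunit that regenerates NAD by making lactate, had levels of 13.66, 13.58 and 13.58 in Sap-1 shRNA cells, 13.18, 13.24 and 13.23 in Net shRNA cells and 13.03, 13.04 and 13.12 in control. Ldha rose by 0.55 (SE 0.04, adjusted p = 3.0e-06) with Sap-1 shRNA and by 0.15 (SE 0.04, adjusted p = 0.022) with Net shRNA. Its Net call was lost without Net shRNA replicate 2 or 3 or control replicate 1 or 2 (adjusted p at most 0.076). Pgam1, phosphoglycerate mutase, rose by 0.39 and Pkm, pyruvate kinase, by 0.33 with Sap-1 shRNA (adjusted p = 6.9e-05 and 8.5e-05), while with Net shRNA they lay at 0.10 and 0.11 (adjusted p = 0.17 and 0.071).

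Transporters moved little. Slc2a1, the glucose transporter GLUT1, had levels of 13.64, 13.61 and 13.61 in Sap-1 shRNA cells, 13.5, 13.54 and 13.49 in Net shRNA cells and 13.44, 13.43 and 13.54 in control. It rose by 0.15 with Sap-1 shRNA (SE 0.04, adjusted p = 0.018), a call lost without Sap-1 shRNA replicate 1 or control replicate 1 or 2 (adjusted p at most 0.074). Slc2a3, the glucose transporter GLUT3, lay at -0.07 with Sap-1 shRNA and -0.04 with Net shRNA, and Slc16a3, the lactate exporter MCT4 and a known HIF target, at -0.12 with Sap-1 shRNA and -0.02 with Net shRNA (adjusted p = 0.3 to 0.89 for these 4 values). Levels over all arrays were 6.86 to 7.03 for Slc2a3 and 7.39 to 7.77 for Slc16a3, below the median gene level of 7.81. Whether such dim genes lay above background was not tested.

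Regulators of flux passed in 3 of 3 with Sap-1 shRNA. Pdk1, the kinase that switches off pyruvate dehydrogenase and so keeps pyruvate out of mitochondria, had levels of 10.74, 10.61 and 10.78 in Sap-1 shRNA cells, 10.1, 10.21 and 10.21 in Net shRNA cells and 9.75, 9.93 and 9.89 in control. Pdk1 rose by 0.86 with Sap-1 shRNA (SE 0.06, adjusted p = 1.5e-06) and by 0.32 with Net shRNA (SE 0.06, adjusted p = 3.0e-03), and the 3 groups were apart. Pfkfb4, which sets the level of the phosphofructokinase activator fructose-2,6-bisphosphate, had levels of 8.35, 8.36 and 8.37 in Sap-1 shRNA cells, 8.01, 7.82 and 7.95 in Net shRNA cells and 7.9, 7.89 and 8.01 in control. It rose by 0.42 with Sap-1 shRNA (SE 0.05, adjusted p = 1.1e-04) and lay at -0.01 with Net shRNA, whose arrays overlapped control. Pfkfb3, its relative, rose by 0.22 with Sap-1 shRNA (adjusted p = 7.7e-03) and lay at 0.09 with Net shRNA (adjusted p = 0.3).

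Within oxygen sensing the member hydroxylase genes, Egln1 and Egln3, differed from Hif1a. Hif1a had levels of 12.56, 12.59 and 12.66 in Sap-1 shRNA cells, 12.78, 12.84 and 12.85 in Net shRNA cells and 12.66, 12.65 and 12.66 in control. Only the Net shRNA arrays stood above control, by 0.16 (SE 0.04, adjusted p = 0.016), a call lost without Net shRNA replicate 3 (adjusted p at most 0.06), while with Sap-1 shRNA the change was -0.06 (adjusted p = 0.34). Between the knockdowns Hif1a differed by -0.22, lower with Sap-1 shRNA (SE 0.04, adjusted p = 2.0e-03).

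Egln3, a prolyl hydroxylase gene that is itself a HIF target, had levels of 10.87, 10.92 and 10.81 in Sap-1 shRNA cells, 9.5, 9.69 and 9.69 in Net shRNA cells and 9.24, 9.35 and 9.32 in control. It rose by 1.56 with Sap-1 shRNA (SE 0.06, adjusted p = 9.0e-09) and by 0.32 with Net shRNA (SE 0.06, adjusted p = 2.1e-03). Egln1, the main prolyl hydroxylase of HIF in most cells, had levels of 11.01, 11 and 11.01 in Sap-1 shRNA cells, 10.44, 10.54 and 10.47 in Net shRNA cells and 10.09, 10.21 and 10.27 in control. It rose by 0.82 with Sap-1 shRNA (SE 0.05, adjusted p = 4.1e-07) and by 0.30 with Net shRNA (SE 0.05, adjusted p = 1.3e-03), and for both hydroxylases the 3 groups stood in the order Sap-1, Net, control without overlap. Egln2 and Hif1an, HIF hydroxylase genes outside the members, were added after their values were seen. With Sap-1 shRNA they lay at -0.10 (adjusted p = 0.17) and -0.25 (adjusted p = 0.019), and neither passed with Net shRNA. With the median of chromosomal neighbours taken off, Hif1an did not pass with Sap-1 shRNA (adjusted p = 0.052).

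All 3 mitochondrial HIF targets rose with Sap-1 shRNA, and with Net shRNA their calls depended on the setting. Bnip3, an outer membrane receptor for mitophagy whose promoter is printed above, had levels of 12.16, 12.22 and 12.27 in Sap-1 shRNA cells, 10.78, 10.99 and 10.96 in Net shRNA cells and 10.7, 10.83 and 10.71 in control. It rose by 1.47 with Sap-1 shRNA (SE 0.06, adjusted p = 2.0e-08) and lay at 0.16 with Net shRNA (adjusted p = 0.082), where arrays overlapped control. The Net shRNA value passed with the dimmer genes left out, with the mean of its probe sets and without Net shRNA replicate 1. On the other Bnip3 probe set it was 0.26 (adjusted p = 8.1e-03), with Net shRNA arrays at 10.27 to 10.41 and control at 10.03 to 10.19. Among the members' probe sets the number of this other one comes next after that of Aldoa, on chromosome 7 like Bnip3. Higd1a, a small inner membrane protein linked to respiratory complexes, had levels of 8.01, 8.29 and 8.24 in Sap-1 shRNA cells, 6.99, 7.06 and 7.34 in Net shRNA cells and 7.12, 7.13 and 7.3 in control. It rose by 1.00 with Sap-1 shRNA (SE 0.1, adjusted p = 1.5e-05). Bnip3l, a relative of Bnip3 that also acts in mitophagy, rose by 0.34 with Sap-1 shRNA (adjusted p = 3.2e-05), with 0.09 for Net shRNA (adjusted p = 0.11), which passed with trend and robust variances, quantile normalization or cyclic loess.

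The 3 genes of collagen maturation and oxidative protein folding all rose with Sap-1 shRNA. Ero1a, the oxidase that drives disulfide formation in the endoplasmic reticulum, had the largest change of all members on the probe sets used (another probe set of Higd1a gave 1.85), with levels of 12.74, 12.78 and 12.77 in Sap-1 shRNA cells, 11.32 on every Net shRNA array and 11.09, 11.01 and 11.28 in control. It rose by 1.64 with Sap-1 shRNA (SE 0.06, adjusted p = 7.7e-09). With Net shRNA it rose by 0.19 (adjusted p = 0.037), a call lost in all but 2 of the fits that left out an array (adjusted p at most 0.14). P4ha2, a collagen prolyl hydroxylase subunit, had levels of 10.44, 10.49 and 10.42 in Sap-1 shRNA cells, 9.32, 9.77 and 9.74 in Net shRNA cells and 9.49, 9.56 and 9.77 in control. It rose by 0.84 with Sap-1 shRNA (SE 0.11, adjusted p = 1.3e-04) and lay at 0 with Net shRNA. P4ha1, the other alpha subunit gene measured, rose by 0.54 (SE 0.05, adjusted p = 7.7e-06) and lay at 0.02 with Net shRNA.

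The remaining HIF targets went different ways. Ddit4, an inhibitor of mTORC1 signalling, had levels of 11.44, 11.47 and 11.45 in Sap-1 shRNA cells, 10.99, 11.07 and 11.01 in Net shRNA cells and 10.48, 10.6 and 10.6 in control. It rose by 0.90 with Sap-1 shRNA (SE 0.04, adjusted p = 7.2e-08) and by 0.47 with Net shRNA (SE 0.04, adjusted p = 2.5e-05). Ndrg1, a stress-responsive gene, had levels of 12.18, 12.2 and 12.11 in Sap-1 shRNA cells, 11.48, 11.55 and 11.4 in Net shRNA cells and 11.5, 11.54 and 11.67 in control, and it rose with Sap-1 shRNA only, by 0.59 (SE 0.06, adjusted p = 1.2e-05). Its Net shRNA arrays overlapped control, at -0.09, and it was 0.69 higher in Sap-1 than in Net shRNA cells (adjusted p = 3.7e-06).

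Adm had the reverse order of the knockdowns. Its levels were 11.85 on every Sap-1 shRNA array, 12.64, 12.68 and 12.62 in Net shRNA cells and 11.62, 11.68 and 11.77 in control. The Sap-1 shRNA arrays had an SD of 0. Identical values give no measure of spread between replicates, and they lower the pooled variance behind the SE. Adm rose by 0.17 with Sap-1 shRNA (SE 0.04, adjusted p = 0.016) and by 0.96 with Net shRNA (SE 0.04, adjusted p = 1.0e-07), a Sap-1 shRNA call lost without control replicate 1 or 2 (adjusted p at most 0.061). Between the knockdowns the difference was -0.79 (SE 0.04, adjusted p = 2.0e-07). Ankrd37, a HIF target with ankyrin repeats, rose by 0.24 with Sap-1 shRNA (adjusted p = 6.3e-03) and lay at 0.12 with Net shRNA. It stood at 7.65 on every Net shRNA array (SD 2.3e-05), so the same limit on the pooled variance holds. Mxi1, a MAX partner that opposes MYC, rose by 0.21 with Sap-1 shRNA (adjusted p = 0.015), a call lost without Sap-1 shRNA replicate 2 or 3 or control replicate 1 (adjusted p at most 0.064). With Net shRNA Mxi1 lay at -0.17 (adjusted p = 0.055), all 3 arrays below control. Mxi1 was called lower with Net shRNA with only the 6 arrays compared, under median centring, quantile normalization or cyclic loess, with the dimmer genes left out, and without Sap-1 shRNA replicate 1. Car9, a carbonic anhydrase gene much used as a marker of HIF activity, lay at 0.13 with Sap-1 shRNA and 0.06 with Net shRNA and passed in neither (adjusted p = 0.17 and 0.62), with levels of 5.9 to 6.18 on all 9 arrays.

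**Figure D2:**
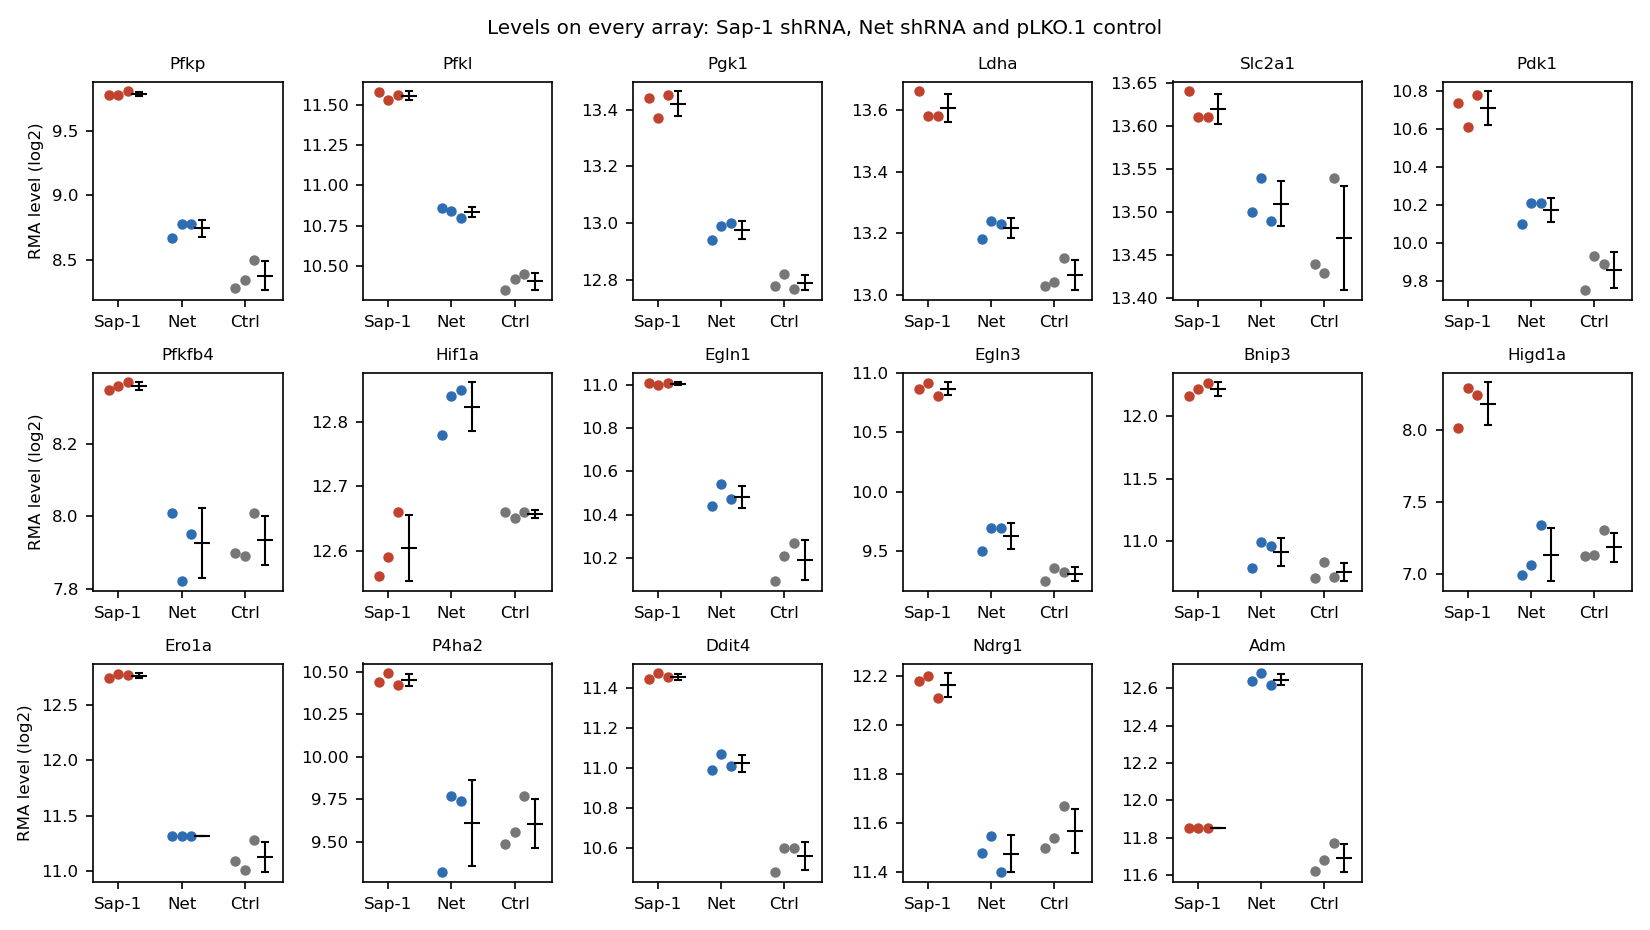
RMA level (log2, each panel with its own axis) of 17 members on every array of the Sap-1 shRNA, Net shRNA and control (Ctrl) groups; points are arrays and the bar beside them is the mean with the SD of 3 arrays. The Sap-1 shRNA arrays are the highest in every panel except Hif1a and Adm, where Net shRNA is highest.

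For some members the choice of probe set mattered. Hk1, hexokinase 1, had 2 probe sets of its own, and the one used stood at 13.25 to 13.39 in Sap-1 shRNA cells, 13.25 to 13.4 in Net shRNA cells and 13.26 to 13.37 in control, with overlapping groups. On the other the levels were 11.03, 11.06 and 11.08 in Sap-1 shRNA cells, 10.25, 10.39 and 10.27 in Net shRNA cells and 10.3, 10.31 and 10.29 in control, a rise of 0.75 with Sap-1 shRNA (SE 0.04, adjusted p = 3.9e-07 over all such probe sets). A further 16 probe sets carry Hk1 together with other symbols, among them the ribosomal protein gene Rpl17, and were not used. Which probe set reads Hk1 alone is not stated in the annotation. In order of probe set numbers, the other one falls between those of Ddit4 and Pfkl. These genes lie on chromosome 10, minus strand, as Hk1 does, and the number of the probe set used falls outside that stretch. Position was not used in the choice of probe sets. On the other probe set the count of 9 glycolytic enzymes higher with Sap-1 shRNA would be 10.

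Higd1a rose by 1.85 on its other probe set (SE 0.1, adjusted p = 1.4e-07) against 1.00 on the one used, and with Net shRNA the other probe set gave 0.31 (adjusted p = 0.037) against -0.05. By number the Higd1a probe set used comes next after that of Pfkfb4, on chromosome 9 like Higd1a, and the other one falls elsewhere. The Pgk1 probe set used falls between those of Hif1a and Egln3 on chromosome 12, although Pgk1 lies on chromosome X. That of Pgam1 falls away from Mxi1, on chromosome 19 like Pgam1. What each probe set reads was not tested. Bnip3 gave 1.58 on its other probe set with Sap-1 shRNA, and 0.26 with Net shRNA (adjusted p = 8.1e-03). Pkm gave 0.34 and -0.01 for Sap-1 and Net shRNA on its other probe set. With Sap-1 shRNA the probe sets gave 0.60 and 0.63 for Pgk1, 0.39 and 0.46 for Pgam1 and 0.34 and 0.39 for Bnip3l, and 2 of the Pgk1 probe sets and 2 of the Pgam1 probe sets held the same values on every array at 2 decimals.

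**Figure D3:**
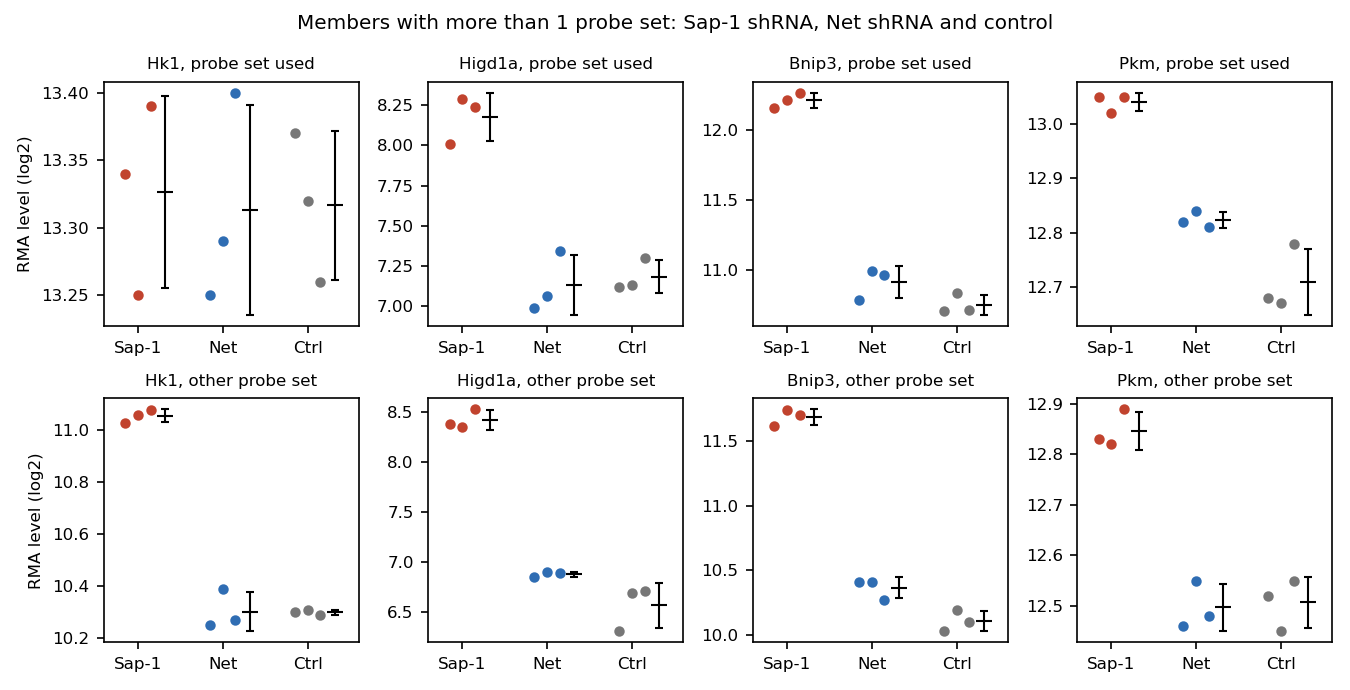
RMA level (log2, each panel with its own axis) on every array for the probe set used (upper row) and the other probe set (lower row) of Hk1, Higd1a, Bnip3 and Pkm, with the mean and SD of 3 arrays per group. The groups overlap on the Hk1 probe set used, while on the other one Sap-1 shRNA stands at 11.03 to 11.08 and the remaining arrays at 10.25 to 10.39.

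The other genes of these pathways were counted in the same way, without a test against the members. Of 37 measured other genes of glycolysis and pyruvate use, 10 were higher and 6 lower with Sap-1 shRNA and 8 and 3 with Net shRNA, with a median of 0.01 in each. The shares higher were 27% and 21.6%. Over all genes tested 15.8% were higher and 13.9% lower with Sap-1 shRNA, and 13.4% and 10.2% with Net shRNA. Among genes at or above the median level, as 22 of the 37 are, these shares were 29.8% and 24.7%, and 26.5% and 20.9%. Eno3, the muscle-type enolase, rose by 2.14 with Sap-1 shRNA (SE 0.05, adjusted p = 1.3e-10) and by 0.46 with Net shRNA, and it was 1.68 higher in Sap-1 than in Net shRNA cells. The phosphoglucomutase gene Pgm1 rose by 0.98 with Sap-1 shRNA and 0.52 with Net shRNA, and the mitochondrial glycerol phosphate dehydrogenase gene Gpd2 by 0.53 with Sap-1 shRNA, whereas Pdp1, a phosphatase that reactivates pyruvate dehydrogenase, fell by 0.62. With Net shRNA the monocarboxylate transporter gene Slc16a7 rose by 1.02 and the second lactate dehydrogenase subunit gene Ldhb by 0.30. Both were lower in Sap-1 than in Net shRNA cells, at -1.01 and -0.58.

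Of 34 further HIF targets, 15 were higher and 6 lower with Sap-1 shRNA (median 0.10) and 13 higher and 5 lower with Net shRNA (median 0.08). The shares higher were 44.1% and 38.2%. Among genes at or above the median level, as 27 of the 34 are, 29.8% were higher and 24.7% lower with Sap-1 shRNA, and 26.5% and 20.9% with Net shRNA. Ak4, a mitochondrial adenylate kinase gene, rose by 1.95, the collagen lysyl hydroxylase gene Plod2 by 1.64, the transferrin receptor gene Tfrc by 1.61 and Fam162a by 1.53 with Sap-1 shRNA. The other Ak4 probe set gave 1.70. Over the whole list the changes with Sap-1 shRNA ran from -1.35 to 2.07. The lowest was that of Fut11 on the probe set used, and its other probe set gave 0.21. With Net shRNA Tfrc rose by 0.81, the haem oxygenase gene Hmox1 by 0.78 and Plod2 by 0.69, and the lipoprotein receptor gene Vldlr fell by 1.51. Between the knockdowns Vldlr stood 2.54 higher, Ak4 1.42 and Fam162a 1.16 higher in Sap-1 shRNA cells. The fucosyltransferase gene Fut11 gave -1.75 there on the probe set used and 0.37 on its other one. Vegfa, the vessel growth factor chosen here as the best known HIF target after its values were seen, lay at 0.19 with Sap-1 shRNA (adjusted p = 0.12) and fell by 0.29 with Net shRNA (adjusted p = 0.027).

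Of 15 measured regulators and cofactors of HIF, 4 were higher and 3 lower with Sap-1 shRNA, and none was higher and 3 lower with Net shRNA. Among genes at or above the median level, as 13 of these 15 are, 29.8% were higher and 24.7% lower with Sap-1 shRNA, and 26.5% and 20.9% with Net shRNA. The list's 26.7% higher with Sap-1 shRNA lay near that share. Arnt, the constant HIF subunit, fell by 0.45 with Sap-1 shRNA (SE 0.05, adjusted p = 3.0e-05), with 11.6 ± 0.05 in Sap-1 shRNA cells and 12.05 ± 0.01 in control (SD, n = 3 each). Hsp90aa1, a chaperone gene, rose by 0.34 and Rbx1, a ubiquitin ligase subunit gene, by 0.23, and Arnt2 fell by 0.28 with Sap-1 shRNA. With Net shRNA Arnt2 fell by 0.66, and the coactivator genes Crebbp and Ep300 fell by 0.30 and 0.26. Rbx1 with its other probe set gave 0.24 with Sap-1 shRNA. Of 9 genes of the pentose phosphate pathway and phosphoribosyl pyrophosphate synthesis, 5 were higher and 1 lower with Sap-1 shRNA and 2 higher and 3 lower with Net shRNA. All 9 lay at or above the median level, and the shares higher were 55.6% and 22.2%. Prps2 rose by 0.78, the transaldolase gene Taldo1 by 0.67 and Prps1 by 0.52 with Sap-1 shRNA, while H6pd fell by 0.21. With Net shRNA H6pd fell by 0.54 and Pgd by 0.47, and with the median of their chromosomal neighbours taken off these were -0.38 and -0.32. Prps2 rose by 0.43 and Pgls by 0.34 in the same cells.

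**Figure D4:**
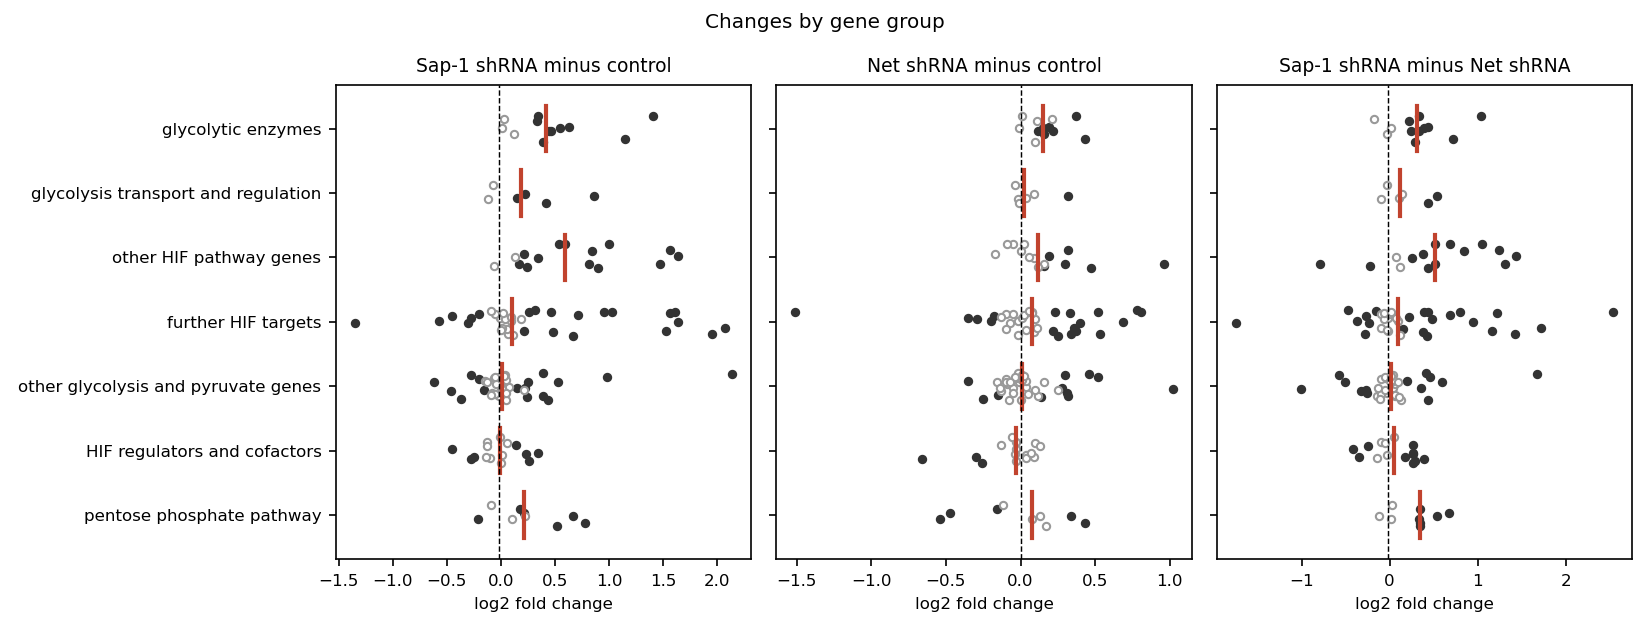
Log2 fold changes of single genes in 7 gene groups for the 3 comparisons; dark points passed at an adjusted p under 0.05, open points did not, red bars are group medians and the dashed line is the median of all genes tested. With Sap-1 shRNA minus control the medians are 0.42 for glycolytic enzymes and 0.59 for the other HIF pathway genes, against 0.10 for further HIF targets and 0.01 for other glycolysis genes.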

How the data were processed

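The deposited values are log2 levels. The submitters' processing notes name RMA and the Affymetrix Expression Console; version and settings are not given in the sources used here. It has 28815 probe sets on 9 arrays and no detection calls. Gene names came from GEO's annotation of the platform, and symbols were updated through a RefSeq table of assembly GRCm38.p6. A single symbol was given for 21780, several for 1605 and none for 5430; genes were named from the first kind, 19935 in all, with the highest-mean probe set per gene. The build of the array's design is not given in the sources used here.

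The test was limma's moderated test (version 3.58.1, R 4.3.3; lmFit and eBayes, 1 fit over all 9 arrays, a mean per group, 6 residual and 4.7 prior degrees of freedom), with Benjamini-Hochberg adjustment over all genes. Genes were called at an adjusted p under 0.05. SE is that of the fit. Simulated data with the same 19935 genes, 50 of them changed at each of 1.1, 1.2, 1.5 and 2-fold, gave in the Net comparison 2%, 66%, 100% and 100% of these called, with 8 false calls. Far fewer genes changed there than were called in the real data (4714), which makes the adjusted p stricter in the simulation.

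Members, lists and tests were chosen with earlier results of these data known. Shown in full were the 2 members per role with the largest called change with Sap-1 shRNA, the 1 with the largest with Net shRNA, and Hif1a; of other lists, up to 4 called genes per comparison with the smallest adjusted p. Alternatives were the replicate number as a block, other variance models, arrays, normalizations, filters, probe sets and thresholds, the median of 50 chromosomal neighbours taken off, and each array left out.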

Additional observations from a re-analysis of the deposited data

How the results depend on the processing

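With Sap-1 shRNA, 23 of the 26 member calls held in all of up to 19 settings other than the stricter thresholds, as did 24 of 24 between the knockdowns and 9 of 14 with Net shRNA; the exceptions were Slc2a1, Adm and Mxi1 with Sap-1 shRNA and Pfkm, Aldoa, Ldha, Hif1a and Ero1a with Net shRNA, all 5 of which were lost with arrays centred on their medians. The deviations of same-numbered arrays correlated at -0.11 to 0.36, and at 0.17 to 0.36 for replicate 1, against -0.43 to 0.3 for arrays of other numbers, so a pairing in every replicate was not shown. With the replicate number as a block 6263, 4985 and 5752 genes were called with Sap-1 shRNA, with Net shRNA and between the knockdowns, against 5921, 4714 and 5480 without it, and 26, 16 and 24 members against 26, 14 and 24. With Net shRNA the block added Aldoc, Bnip3 and Mxi1 (lower) and lost Aldoa. Calls gained with Net shRNA in other settings were those of Pkm, Bnip3l, Pgam1, Aldoc, Bnip3, Mxi1 and, on its other probe set, Higd1a.

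With Net shRNA, 9 members and 4 glycolytic enzymes were called at an adjusted p under 0.01, and 4 glycolytic enzymes with arrays centred on their medians, against 14 and 7; this centring shifted the median change by -0.02. With a fold of at least 1.5 required, Net shRNA gave 510 genes, 1 member, 0 glycolytic enzymes and 1 other HIF pathway gene, Sap-1 shRNA 890, 12, 3 and 8, and the direct comparison 924, 9, 2 and 7. With each array left out, all genes called ranged from 3848 to 4766 with Net shRNA, 5043 to 6160 with Sap-1 shRNA and 4770 to 5481 between them, and members from 10 to 15, 23 to 27 and 24 to 25. Glycolytic enzymes ranged from 4 to 8, 9 to 10 and 9 to 9, with 4 without Net shRNA replicate 2, control replicate 1 or control replicate 2, and other HIF pathway genes from 4 to 6, 11 to 13 and 13 to 14. The only reversal among the 17 members shown in full was Higd1a with Net shRNA, at 0.31 on its other probe set, a setting added after seeing the data. No detection call was available, so which dim genes lay above background was not tested.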
